A study of Mus musculus with 10 samples.

Results

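Voltage-gated sodium and calcium channels are the proteins with which a neuron fires action potentials and couples them to calcium entry. Their transcripts were examined at postnatal day 6 in mouse retinal ganglion cells, the neurons whose axons form the optic nerve. Members were all entries of the deposited gene table whose symbol begins with Scn, a number and a or b, or with Cacna, Cacnb or Cacng. That rule uses names alone and found 40 genes among the 23259 symbols of the table: 20 pore subunits (10 sodium and 10 calcium) and 20 auxiliary subunits (4 sodium beta, 4 calcium alpha2-delta, 4 calcium beta and 8 gamma).

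The tested cells came from Satb1-/- Hb9-GFP mice and were set against cells of wild-type Hb9-GFP mice, both of the C57BL/6 strain, with 5 libraries of each genotype from different litters. All of them carried the Hb9-GFP reporter, which labels ON-OFF direction-selective ganglion cells, and RNA came from about 1000 sorted fluorescent cells per library. Satb1 encodes a chromatin organizer that binds DNA rich in A and T. The labels do not say which part of Satb1 is missing or how many animals made up a library. The question put to the data here was which channel subunits these cells transcribe at this age, and whether their levels differed in cells of Satb1-/- mice.

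A sodium channel consists of 1 large pore protein that carries the voltage sensors and the ion path, joined by small single-pass beta subunits that alter gating and surface level. High-voltage calcium channels are built likewise from a pore protein, an intracellular beta subunit and an extracellular alpha2-delta subunit, while low-voltage (T-type) pores can work alone. In ganglion cells sodium channels gather at the axon initial segment and the nodes, and calcium channels trigger transmitter release and shape firing. Most gamma genes, although named for calcium channels, encode TARPs, which carry AMPA-type glutamate receptors to the synapse.

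Values are in TPM, a level scaled for transcript length and library total, so that levels of different genes can be set side by side. How evenly long and short transcripts were recovered was not tested, so rankings between genes of unlike length carry that limit. Differences are knockout minus wild-type on the log2(TPM + 1) scale, on which the change of low-abundance genes comes out too small. The 30 members that reached 1 TPM in 5 or more libraries entered the test, limma with Benjamini-Hochberg adjustment over all 11745 tested genes and a threshold of 0.05. The other 10 members are described by level only.

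The libraries differed in ways that genotype does not account for. Knockout 4, knockout 5 and wild-type 5 stood apart on the first principal component of all tested genes (scores of 88.0 to 149, against at most -14.2 in the other 7), and ribosomal protein genes took 12.2% to 13.7% of their TPM, against 3.88% to 8.04% elsewhere. Satb1 itself was at 170.4, 126, 83.1, 34.9 and 24.1 TPM in knockout 1 to 5 and at 304, 189, 414, 132 and 38.6 TPM in wild-type 1 to 5, so the genotypes overlapped and a value for the whole gene is a weak check of the labels. Summed over marker lists, ganglion cell markers ran from 12299 to 99679 TPM in knockout and from 14242 to 28658 TPM in wild-type, and rod markers from 1.36 to 497 TPM in knockout and from 3.89 to 531 TPM in wild-type. In knockout the other sums were 41.1 to 294 TPM for bipolar cell, 88.9 to 262 TPM for amacrine cell, 166 to 5744 TPM for Muller glia, 68.4 to 2181 TPM for microglia and 0.0712 to 1.75 TPM for muscle and pericyte markers. In wild-type they were 153 to 341, 84.1 to 358, 306 to 597, 2.55 to 1271 and 0 to 55.7 TPM in the same order. Nefl was the largest part of the ganglion cell sum in every library, and alone gave 94381 TPM of the highest, that of knockout 3. In knockout 4, knockout 5 and wild-type 5 Pou4f1 was at 72.7, 39.6 and 37.4 TPM, against 194 to 371 TPM elsewhere. Slc17a6 was at 96.7, 55.2 and 67.8 TPM there, against 176 to 726 TPM, and Pou4f2 and Isl1 were also lower. Thy1 was higher, at 2105, 1397 and 1969 TPM against 705 to 1329 TPM, and the other genes of the list overlapped. Genes with a median under 1 TPM numbered 0 of 12 for the ganglion cell, 2 of 10 for the rod, 3 of 8 for the bipolar cell, 5 of 8 for the amacrine cell, 3 of 7 for the Muller glia, 0 of 8 for the microglia and 5 of 6 for the muscle and pericyte list. Grm6, Gad1 and Acta2 were under 1 TPM in every library, while Otx2 of the bipolar cell, Pax6 of the amacrine cell and Rgs5 of the pericyte markers reached 120.3, 349 and 42.9 TPM. Isl1 stands in both the ganglion cell and the bipolar cell list. It ran from 29.1 to 201 TPM in knockout and from 28.3 to 297 TPM in wild-type, most of the bipolar cell sum except in wild-type 4 and 5. Pax6 alone was most of the amacrine cell sum in every library. The part of the other cell types in the channel levels was not tested.

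Of the 40 members, 23 had a median of at least 10 TPM over the 10 libraries, and 5 stayed under 1 TPM in every library. Those 5 were Scn4a and Cacna1s, the pores of skeletal muscle, Scn10a, a pore of pain-sensing neurons, the beta subunit gene Scn4b and the gamma subunit gene Cacng6. None of the 30 tested members passed the threshold in limma (0 of 30), where 0% of all tested genes passed. At an unadjusted p under 0.05 there were 3 of 30 (10%), against 3.31% of all tested genes, and Cacng7 and Scn2b, both lower in knockout, were among them. The median standard error of a member's difference was 0.75 on the log2 scale, and a member that misses the threshold is not shown to be unchanged. Without wild-type 5 there were 8 of 30 members at an unadjusted limma p under 0.05, beside 845 of all 11745 tested genes. Knockout 4 and 5 were then the only libraries apart left in the fit. Without knockout 4, knockout 5 and wild-type 5 there were 4 of 30 members, beside 513 of all tested genes. With a term for those libraries there were 3 of 30, beside 499. In such bulk samples fewer cells of a type and less RNA per cell cannot be told apart.

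Windows upstream of a RefSeq start are shown for 3 genes: the most abundant sodium pore gene and the sodium pore and gamma genes with the largest differences. Satb1 is known for binding A- and T-rich DNA. The Scn8a window lies inside the annotated span of its gene, which begins at 100869858, and so precedes a later start. Each is the 250 bases before a RefSeq start (GRCm38.p6, the coordinates of mm10), free of annotated exons, 5′ to 3′ on the plus strand, with the longest runs made only of A and T in capitals.
Scn2a1 (Scn2a), chr2:65620519-65620768: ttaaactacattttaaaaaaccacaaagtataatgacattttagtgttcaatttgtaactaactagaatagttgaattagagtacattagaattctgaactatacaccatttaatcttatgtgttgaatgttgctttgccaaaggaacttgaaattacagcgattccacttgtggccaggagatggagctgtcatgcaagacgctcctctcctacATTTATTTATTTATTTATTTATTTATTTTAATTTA
Scn8a, chr15:100870395-100870644: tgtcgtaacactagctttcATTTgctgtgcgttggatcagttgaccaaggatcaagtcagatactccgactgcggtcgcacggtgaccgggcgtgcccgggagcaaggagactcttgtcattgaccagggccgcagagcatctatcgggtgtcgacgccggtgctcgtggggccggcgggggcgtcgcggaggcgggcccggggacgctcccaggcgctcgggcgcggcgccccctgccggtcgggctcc
Cacng7, chr7:3332575-3332824: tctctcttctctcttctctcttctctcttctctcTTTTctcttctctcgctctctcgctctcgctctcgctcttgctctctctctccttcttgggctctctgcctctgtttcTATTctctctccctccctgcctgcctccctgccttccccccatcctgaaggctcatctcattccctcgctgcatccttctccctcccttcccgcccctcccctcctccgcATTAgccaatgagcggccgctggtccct
The Scn2a1 window was 70.4% A and T, with a run of 35 bases directly before the start, and was picked out after its composition was seen. Only 1.45% of the 32851 windows of the reference were as rich in A and T, and 0.0487% held so long a run. The second Scn2a1 window was 46.8% A and T. The Scn8a window shown was 32.0% A and T and the Cacng7 window 42.0%, both below the reference median of 47.6%, and their longest run was 4 bases, which 93.7% of windows equal or exceed. RefSeq windows were matched for 30 of the 40 members, 41 windows in all, with a median of 43.2% A and T and a range of 13.6% to 70.4%. These letters say nothing of where Satb1 binds, and the start sites used in these cells were not measured.

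Sodium channel transcripts came mainly from 5 pore genes. Scn2a1, Scn3a, Scn8a, Scn1a and Scn9a together made up 81.1% to 99.2% of the summed TPM of the 10 sodium pore genes, with a median of 96.3%. Scn2a1 (Nav1.2, the pore of immature axons; chromosome 2, 65620771 to 65767447, plus strand, mm10) and Scn3a (Nav1.3, abundant in embryonic and early postnatal neurons; chromosome 2, 65457118 to 65567627, minus strand) were the most abundant by median. Scn2a1 was at 139, 86.2, 36.1, 24.6 and 15.3 TPM in knockout 1 to 5, against 165, 132, 166, 64.4 and 21.6 TPM in wild-type 1 to 5. All knockout libraries but knockout 5 lay within the wild-type range, and the lowest level of each genotype was in knockout 5 and wild-type 5. Scn3a was at 139.8, 62.5, 53.1, 12.4 and 9.64 TPM in knockout and 187, 80.5, 93.1, 39.6 and 10.1 TPM in wild-type, again lowest in knockout 5 and wild-type 5. The 2 genes lie next to each other on chromosome 2, 53.1 kb apart and on opposite strands, and Scn2a1 was above Scn3a in 7 of 10 libraries.

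Scn8a (Nav1.6, the pore that takes over at mature initial segments and nodes; chromosome 15, 100869858 to 101045938, plus strand) was at 55.0, 28.8, 41.3, 17.0 and 10.8 TPM in knockout and 139, 72.0, 82.6, 39.3 and 23.3 TPM in wild-type. Only knockout 4 and 5 were below every wild-type library and only wild-type 1, 2 and 3 above every knockout library. Scn2a1 was above Scn8a in 8 of 10 libraries and Scn3a in 7 of 10, so at this age the pore genes of immature axons mostly led. Scn1a (Nav1.1; chromosome 2, 66270778 to 66440840, minus strand), the third of the brain pore genes on chromosome 2, was at 21.0, 32.2, 13.8, 6.27 and 4.27 TPM in knockout and 74.9, 42.1, 42.0, 18.04 and 6.68 TPM in wild-type, below Scn2a1 in 10 of 10 libraries. The genotypes overlapped for each of these 4 genes. Their differences were -1.16 for Scn8a (SE 0.67), -1.13 for Scn1a (SE 0.78), -0.97 for Scn2a1 (SE 0.73) and -0.65 for Scn3a (SE 0.83), with two-sided exact permutation p values of 0.0952, 0.151, 0.254 and 0.508.

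Scn9a (Nav1.7, best known from pain-sensing neurons; chromosome 2, 66480080 to 66634962, minus strand) varied more than the others. It was at 207, 14.6, 17.6, 8.71 and 3.58 TPM in knockout and 40.6, 74.4, 33.5, 8.99 and 4.51 TPM in wild-type, so that knockout 1 alone held 36.4% of its sodium pore transcripts in this gene, against 5.23% to 18.02% in the other 9 libraries. Its difference of -0.23 (SE 0.96; two-sided exact permutation p = 0.865) was 0.15 after median centring, 0.28 without the 3 libraries apart and -1.09 without knockout 1. Scn7a, which encodes the sodium-sensing relative Nax rather than a channel opened by voltage, was at 1.14 to 4.35 TPM in knockout and 0.589 to 6.73 TPM in wild-type. Scn11a reached at most 1.60 TPM, in wild-type 3. Scn10a was listed at 0 in every library, and Scn4a in all but knockout 2 and wild-type 4, at 0.0593 and 0.0897 TPM.

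Totals and shares of the sodium pore genes overlapped between the genotypes. The sum over the 10 pore genes was 569, 235, 199.6, 75.2 and 47.1 TPM in knockout 1 to 5, against 624, 413, 424, 172 and 70.1 TPM in wild-type 1 to 5, so the lowest 3 sums belonged to knockout 5, wild-type 5 and knockout 4. Scn2a1 took 18.1% to 36.7% of it in knockout (median 32.4%) and 26.5% to 39.2% in wild-type (median 32.0%). Scn8a took 9.66% to 22.9% in knockout (median 20.7%) and 17.4% to 33.2% in wild-type (median 22.3%), and Scn3a 16.5% to 26.6% in knockout (median 24.6%) and 14.4% to 29.96% in wild-type (median 22.0%).

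**Figure D1:**
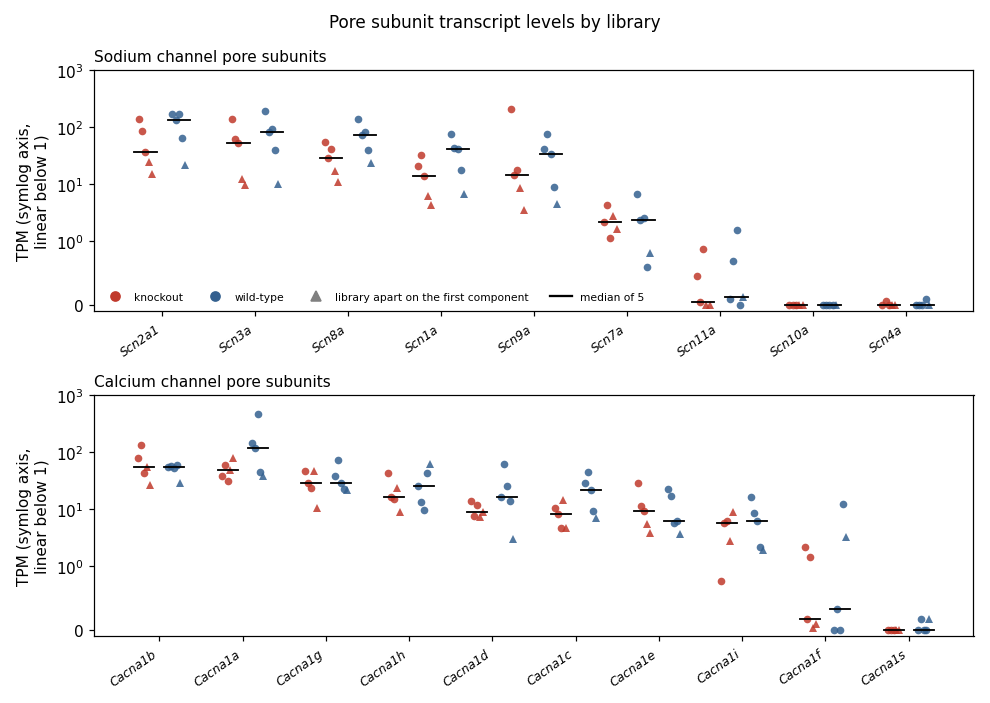
Levels of 9 sodium pore genes (top) and the 10 calcium pore genes (bottom) in each library, in TPM on an axis that is linear below 1 and logarithmic above, with knockout left of wild-type, a line at the median of 5 and triangles for the 3 libraries apart on the first component. Scn2a1, Scn3a and Scn8a lead the sodium pores and Cacna1b and Cacna1a the calcium pores, and the triangles mark the lowest values of the 5 leading sodium pores in each genotype.

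The sodium beta genes held the only tested member whose genotypes did not overlap. Scn2b, which encodes a beta subunit bound to the pore by a disulfide bridge (chromosome 9, 45117782 to 45130070, plus strand), was at 4.14, 4.78, 1.80, 3.02 and 4.45 TPM in knockout 1 to 5, against 13.5, 69.5, 8.45, 16.4 and 5.68 TPM in wild-type 1 to 5. The highest knockout level was under the lowest wild-type level, although knockout 2 and wild-type 5 differed by less than 1 TPM and wild-type 2 stood far above the rest. The means were 3.64 ± 1.22 TPM in knockout and 22.7 ± 26.5 TPM in wild-type (SD, n = 5 each), a difference of -1.85 (SE 0.77, 95% interval -3.46 to -0.25). The two-sided exact permutation p was 0.00794, the smallest that this design can give, while the limma adjusted p was 0.992. Any gene whose genotypes do not overlap gets this exact p, so it adds nothing to the lack of overlap. It was not adjusted for the number of members. Levels did not overlap for 1 of the 30 tested members (3.33%), against 0.502% of all tested genes (0.426% with knockout below and 0.0766% with knockout above). The difference was -2.21 without the 3 libraries apart and -1.32 without wild-type 2.

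Scn3b, expressed early in development in many neurons (chromosome 9, 40269217 to 40291618, plus strand), was the most abundant beta gene in 8 of 10 libraries. It was at 520.2, 53.5, 78.2, 72.2 and 63.6 TPM in knockout and 115, 101, 308, 133 and 20.7 TPM in wild-type, with knockout 1 and wild-type 3 far above the rest. Its difference was 0.00083 (SE 0.74; two-sided exact permutation p = 1), -0.59 without knockout 1 and -0.55 without wild-type 5. Scn4b was listed at 0 in 9 libraries and at 0.40 TPM in knockout 3.

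Calcium pore transcripts were led by the presynaptic Cav2 genes. Cacna1b (N-type, Cav2.2; chromosome 2, 24603887 to 24763152, minus strand) was at 76.8, 133, 41.9, 55.5 and 26.7 TPM in knockout and 53.7, 57.3, 53.0, 60.1 and 28.3 TPM in wild-type. Wild-type 1 to 4 lay between 53.0 and 60.1 TPM, and the knockout libraries spread on both sides of them. Cacna1a (P/Q-type, Cav2.1; chromosome 8, 84388440 to 84640246, plus strand) was at 37.9, 59.8, 31.2, 48.7 and 77.7 TPM in knockout and 141, 119, 466, 45.3 and 38.6 TPM in wild-type, where wild-type 3 was far above the rest and wild-type 1 and 2 were also above every knockout library. Cacna1b was the highest calcium pore gene in 5 libraries and Cacna1a in 4, and neither led the other in more than 5 of 10. The differences were -1.12 for Cacna1a (SE 0.68; two-sided exact permutation p = 0.135) and 0.24 for Cacna1b (SE 0.60; exact p = 0.627), and the Cacna1b difference was -0.060 without knockout 2. The R-type gene Cacna1e (Cav2.3) ran from 3.83 to 28.1 TPM in knockout and from 3.61 to 22.6 TPM in wild-type.

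T-type pores, which open near the resting potential, followed. Cacna1g (Cav3.1; chromosome 11, 94408391 to 94474198, minus strand) was at 45.6, 29.0, 23.0, 46.8 and 10.5 TPM in knockout and 37.7, 72.3, 28.6, 22.6 and 21.2 TPM in wild-type. Cacna1h (Cav3.2; chromosome 17, 25374285 to 25433783, minus strand) was at 43.0, 16.5, 14.8, 23.2 and 8.99 TPM in knockout and 25.2, 13.1, 9.61, 42.7 and 61.4 TPM in wild-type, with its highest level in wild-type 5, where the sum over all members was the smallest of its genotype. Cacna1g was above Cacna1h in 8 of 10 libraries. The differences were -0.25 for Cacna1g (SE 0.65; two-sided exact permutation p = 0.667) and -0.37 for Cacna1h (SE 0.71; exact p = 0.563), and after median centring they were 0.12 and 0.0043. Cacna1i, the third T-type gene, was at 0.771 to 8.72 TPM in knockout and 1.91 to 16.1 TPM in wild-type.

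Among the L-type pores, which couple activity to gene expression in neurons, Cacna1d (Cav1.3; chromosome 14, 30039939 to 30491455, minus strand) was at 14.1, 7.47, 11.99, 7.36 and 8.94 TPM in knockout and 16.2, 61.5, 24.95, 13.8 and 3.04 TPM in wild-type. Wild-type 2 was the highest and wild-type 5 the lowest of all 10, so the knockout values lay inside the wild-type range. Its difference was -0.72 (SE 0.77; two-sided exact permutation p = 0.365). Cacna1c (Cav1.2) was at 4.74 to 14.7 TPM in knockout and 7.04 to 43.8 TPM in wild-type. Cacna1f (Cav1.4), the channel of photoreceptor synapses, was at 2.17, 0.174, 1.46, 0.0340 and 0.0930 TPM in knockout 1 to 5 and 0, 0.326, 0, 12.1 and 3.22 TPM in wild-type 1 to 5. The summed rod markers were 263, 64.9, 497, 381 and 1.36 TPM in knockout 1 to 5 and 3.89, 14.4, 12.9, 331 and 531 TPM in wild-type 1 to 5. Each of the 4 libraries with Cacna1f above 1 TPM thus had at least 263 TPM of rod markers, whereas knockout 4 had 381 TPM of rod markers and Cacna1f at 0.034 TPM, and the part of rods in the Cacna1f level was not tested. Cacna1s was listed at 0 in all libraries but wild-type 2 and 5. Exons of Cacna1d and Cacna1h overlap on the opposite strand with those of Chdh and Tpsg1. Exons of Cacna1a, Cacna1s, Cacna2d2, Cacnb1, Cacnb2, Cacnb4, Cacng2 and Scn9a overlap there with less known genes, and those of Cacng8 with Gm23450 on the same strand. Since no source used here states strand-aware counting, reads of overlapping genes cannot be told apart with certainty.

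By family, Cav2 genes made up 53.6% to 75.3% of the summed calcium pore TPM in knockout (median 57.0%) and 41.9% to 85.2% in wild-type (median 52.1%). Cav3 genes made up 18.8% to 35.6% in knockout (median 30.4%) and 7.22% to 50.1% in wild-type (median 24.0%), and Cav1 genes 5.84% to 12.6% in knockout (median 10.3%) and 7.56% to 26.9% in wild-type (median 13.1%). The order Cav2, Cav3, Cav1 therefore held by median in both genotypes, with overlapping ranges. The summed calcium pore level was 259, 271, 145, 205 and 150.2 TPM in knockout 1 to 5, against 341, 393, 615, 214 and 169 TPM in wild-type 1 to 5. Wild-type 1, 2 and 3 were above every knockout library and wild-type 4 and 5 were within the knockout range.

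**Figure D2:**
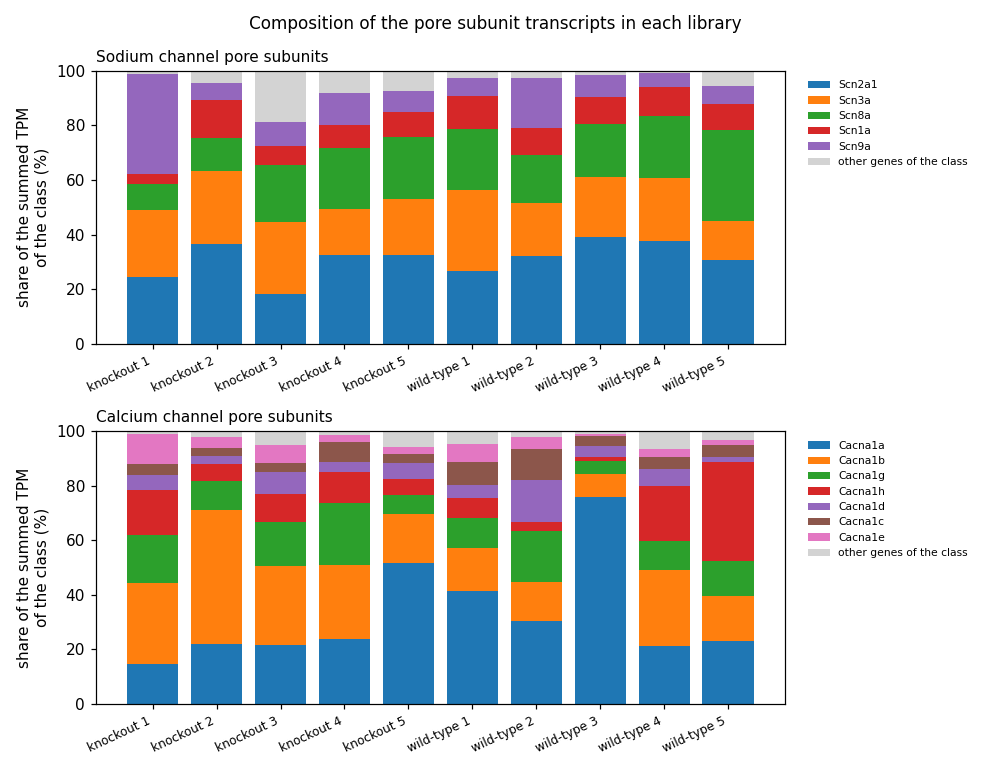
Share of the leading genes, and of all others together in gray, in the summed TPM of the sodium pore genes (top) and of the calcium pore genes (bottom), in percent, for knockout 1 to 5 and then wild-type 1 to 5. Scn2a1, Scn3a and Scn8a together fill most of each sodium bar, Scn9a holds 36.4% in knockout 1, and the Cacna1a share of the calcium bars runs from 14.7% in knockout 1 to 75.7% in wild-type 3.

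The alpha2-delta proteins, which bring calcium channels to the surface and of which Cacna2d1 and Cacna2d2 bind gabapentin, were led by Cacna2d2 (chromosome 9, 107399612 to 107529343, plus strand), the highest of its class in 8 libraries. It was at 56.0, 82.3, 75.6, 58.3 and 29.1 TPM in knockout and 155, 107, 99.0, 87.7 and 45.4 TPM in wild-type. Wild-type 1 to 4 were above all 5 knockout libraries, and wild-type 5 was below 4 of them. Cacna2d1 (chromosome 5, 15934691 to 16374511, plus strand) was at 128, 48.9, 19.6, 8.51 and 5.18 TPM in knockout and 67.3, 62.2, 84.7, 27.7 and 6.95 TPM in wild-type, with the lowest levels of both genotypes in the 3 libraries apart. The differences were -0.68 for Cacna2d2 (SE 0.57; two-sided exact permutation p = 0.111) and -0.69 for Cacna2d1 (SE 0.86; exact p = 0.516).

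Cacna2d3 (chromosome 14, 28904943 to 29721864, minus strand) had the largest positive difference of the tested members, 1.56 (SE 0.92, 95% interval -0.37 to 3.48; two-sided exact permutation p = 0.238). It was at 1.15, 14.2, 0.337, 0.0897 and 48.5 TPM in knockout 1 to 5 and 3.26, 1.23, 0, 0.0956 and 0.0329 TPM in wild-type 1 to 5, with high levels in knockout 2 and 5 alone, and the other 3 knockout libraries were within the wild-type range. Microglia markers summed to 1965 and 2181 TPM in those 2 libraries, their highest values, but also to 1574 TPM in knockout 3, where Fcer1g alone gave 1483 TPM and Cacna2d3 was at 0.337 TPM. In wild-type 4 they summed to 1271 TPM, with Csf1r, C1qb and Tyrobp at 228, 297 and 428 TPM, and Cacna2d3 was at 0.0956 TPM. The knockout 5 sum came mostly from Tyrobp, C1qb and Fcer1g, at 1065, 681 and 286 TPM. Csf1r, Cx3cr1 and C1qa were at 104, 25.4 and 16.4 TPM there. Aif1 was at 0.839 TPM and P2ry12 at 1.15 TPM, the lowest P2ry12 level of all libraries. In knockout 2 Aif1 and P2ry12 were at 20.3 and 71.2 TPM. Muller glia markers were likewise highest in knockout 2 and 5, at 1076 and 5744 TPM against 166 to 597 TPM in the other 8 libraries, and Apoe gave 735 and 5651 TPM of these. The rest of that list was low in knockout 5: Rlbp1, Slc1a3 and Sox9 were listed at 0, and Aqp4 was at 0.282 TPM. Glul was at 61.5 TPM and Dkk3 at 31.3 TPM there, the lowest Dkk3 level of all libraries. In knockout 2 Slc1a3, Glul and Dkk3 were at 10.5, 120 and 210 TPM, while Rlbp1 and Aqp4 were at 0.166 and 0.860 TPM and Sox9 was listed at 0. The part of either cell type in the Cacna2d3 level was not tested. The difference was 0.71 without knockout 5 and 0.97 without the 3 libraries apart. Cacna2d4, which works with Cav1.4 in photoreceptors, was at 3.65, 0.286, 9.67, 0.0706 and 0 TPM in knockout and 0, 0.462, 0, 7.95 and 6.00 TPM in wild-type, and exceeded 1 TPM in the same 4 libraries as Cacna1f.

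The intracellular beta subunits, which hold the calcium pore at the membrane and set its gating, kept 1 order in every library. Cacnb3 was above Cacnb1, Cacnb1 above Cacnb4 and Cacnb4 above Cacnb2 in 10 of 10 libraries. Cacnb3 (chromosome 15, 98630840 to 98644529, plus strand) was the most abundant member of all by median (293 TPM), at 332, 159.7, 295, 448 and 271 TPM in knockout and 261, 147, 673, 448 and 292 TPM in wild-type. Its genotypes overlapped nearly throughout, with a difference of -0.17 (SE 0.54; two-sided exact permutation p = 0.754) that was 0.21 after median centring. Cacnb1, which serves skeletal muscle and brain (chromosome 11, 98001508 to 98023034, minus strand), was at 114, 50.6, 31.6, 97.1 and 22.4 TPM in knockout and 179, 118, 67.0, 311 and 54.6 TPM in wild-type. Knockout 2, 3 and 5 lay under the lowest wild-type level and wild-type 1, 2 and 4 above all knockout libraries, and its difference was -1.17 (SE 0.65; exact p = 0.0952; limma adjusted p = 0.992).

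Cacnb4 (chromosome 2, 52428320 to 52676831, minus strand) was at 33.6, 27.0, 15.5, 4.81 and 14.7 TPM in knockout and 58.6, 26.9, 27.5, 29.3 and 5.10 TPM in wild-type. Cacnb2 (chromosome 2, 14603088 to 14987908, plus strand), needed in photoreceptor synapses and heart, was at 9.39, 19.3, 14.8, 1.0996 and 0.621 TPM in knockout and 24.7, 16.1, 13.2, 20.6 and 0.837 TPM in wild-type. For Cacnb2 the 3 libraries apart were at or below 1.0996 TPM and the other 7 at or above 9.39 TPM, in both genotypes. The differences were -0.52 for Cacnb4 (SE 0.76; two-sided exact permutation p = 0.476) and -0.89 for Cacnb2 (SE 0.93; exact p = 0.310).

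The largest difference of all tested members was in the gamma class. Cacng7, which encodes a TARP (TARP gamma-7; chromosome 7, 3332955 to 3368221, plus strand), was at 109, 20.03, 74.4, 40.2 and 4.09 TPM in knockout 1 to 5, against 418, 255, 123, 85.9 and 62.7 TPM in wild-type 1 to 5. Knockout 2, 4 and 5 were below every wild-type library and wild-type 1, 2 and 3 above every knockout library, while knockout 1 and 3 overlapped with wild-type 4 and 5. The means were 49.5 ± 42.2 TPM in knockout and 189 ± 148 TPM in wild-type (SD, n = 5 each), a difference of -2.20 (SE 0.79, 95% interval -3.84 to -0.55). The two-sided exact permutation p was 0.0476, the limma p 0.0113 before and 0.992 after adjustment. Without the 3 libraries apart the difference was -1.72, and over the other alternatives it ran from -2.63 (without knockout 1) to -1.53 (without knockout 5), with limma adjusted p values of at least 0.645.

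Cacng7 lies at the head of a run of 3 gamma genes on chromosome 7, and its neighbours were near 0. Cacng8 starts 22.5 kb after it and reached at most 1.999 TPM in knockout and 3.69 TPM in wild-type, and Cacng6, 8.5 kb further on, was listed at 0 in every library. A second run on chromosome 11 showed the same contrast: Cacng4 (chromosome 11, 107732357 to 107794557, minus strand) and Cacng5 (chromosome 11, 107874605 to 107915055, minus strand) were abundant, and Cacng1, the gamma subunit of the skeletal muscle channel, which lies 15.8 kb from Cacng4, was listed at 0 in all libraries but knockout 4, at 2.72 TPM. Likewise Scn4b lies 8.3 kb from Scn2b on chromosome 9. The sodium pore genes Scn3a, Scn2a1, Scn1a, Scn9a and Scn7a lie in this order on chromosome 2, with gaps of 38.5 to 503.3 kb and medians of 57.8, 75.3, 19.5, 16.1 and 2.30 TPM.

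Cacng5 (TARP gamma-5) was at 152, 70.8, 97.0, 195 and 28.6 TPM in knockout and 165, 153, 164, 101 and 44.9 TPM in wild-type. Cacng4 (TARP gamma-4, prominent in developing brain) was at 102, 106, 21.1, 121 and 6.20 TPM in knockout and 78.1, 53.2, 61.1, 255 and 34.1 TPM in wild-type. Both had their lowest level of each genotype in knockout 5 and wild-type 5. Cacng3 (TARP gamma-3; chromosome 7, 122670492 to 122769393, plus strand) was at 35.3, 73.9, 128, 92.6 and 169.7 TPM in knockout and 59.8, 108, 11.9, 174 and 59.3 TPM in wild-type, with no such low values there. Cacng2 (stargazin, the founding TARP; chromosome 15, 77991748 to 78120028, minus strand) was at 29.4, 13.0, 8.74, 4.24 and 0.470 TPM in knockout and 50.1, 27.3, 14.3, 7.53 and 2.68 TPM in wild-type, below Cacng5 and Cacng7 in 10 of 10 libraries. The differences were -0.33 for Cacng5 (SE 0.63), -0.70 for Cacng4 (SE 0.80), 0.53 for Cacng3 (SE 0.70) and -0.89 for Cacng2 (SE 0.91), with two-sided exact permutation p values of 0.571, 0.500, 0.524 and 0.389. Without knockout 5 the differences of Cacng4 and Cacng2 were -0.024 and -0.28.

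**Figure D3:**
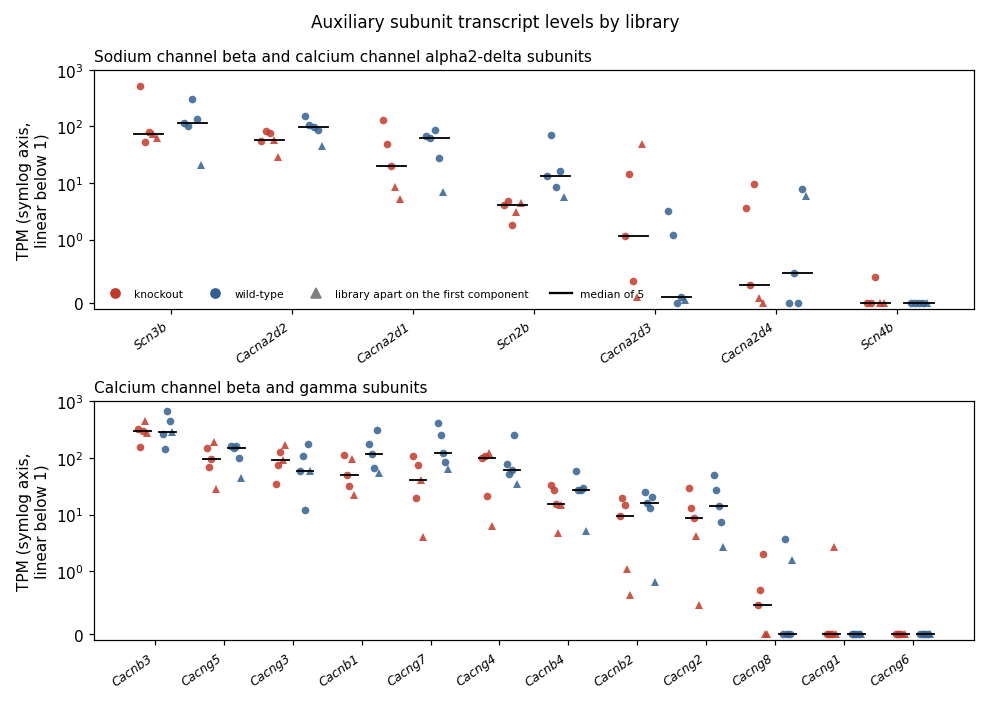
Levels of 3 sodium beta genes and the alpha2-delta genes (top) and of the calcium beta and gamma genes (bottom) in each library, in TPM on an axis that is linear below 1 and logarithmic above, with knockout left of wild-type, a line at the median of 5 and triangles for the 3 libraries apart. The knockout points of Scn2b lie between 1.80 and 4.78 TPM, below every wild-type point (5.68 TPM and above), and Cacnb3 is the highest gene in both genotypes.

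As a list, the members were mostly lower in knockout, and so were all tested genes. Of the 30 tested, 23 were lower and 7 higher in knockout, a share of 76.7%, where 67.4% of all tested genes were lower. The median difference was -0.66 for the members and -0.31 for all tested genes. Scaling moved both: with each library centred on its median, 17 members were lower and 13 higher (median -0.29), against 46.1% of all tested genes lower (median 0.07), and after quantile normalization 20 were lower and 10 higher (median -0.36), against 52.3% (median -0.04). Pore subunits had 11 of 15 lower (median -0.37), 7 of 15 after median centring and 8 of 15 after quantile normalization. Auxiliary subunits had 12 of 15 lower (median -0.69), and 10 and 12 of 15 in those fits. Differences of pore and auxiliary genes were not tested against each other.

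**Figure D4:**
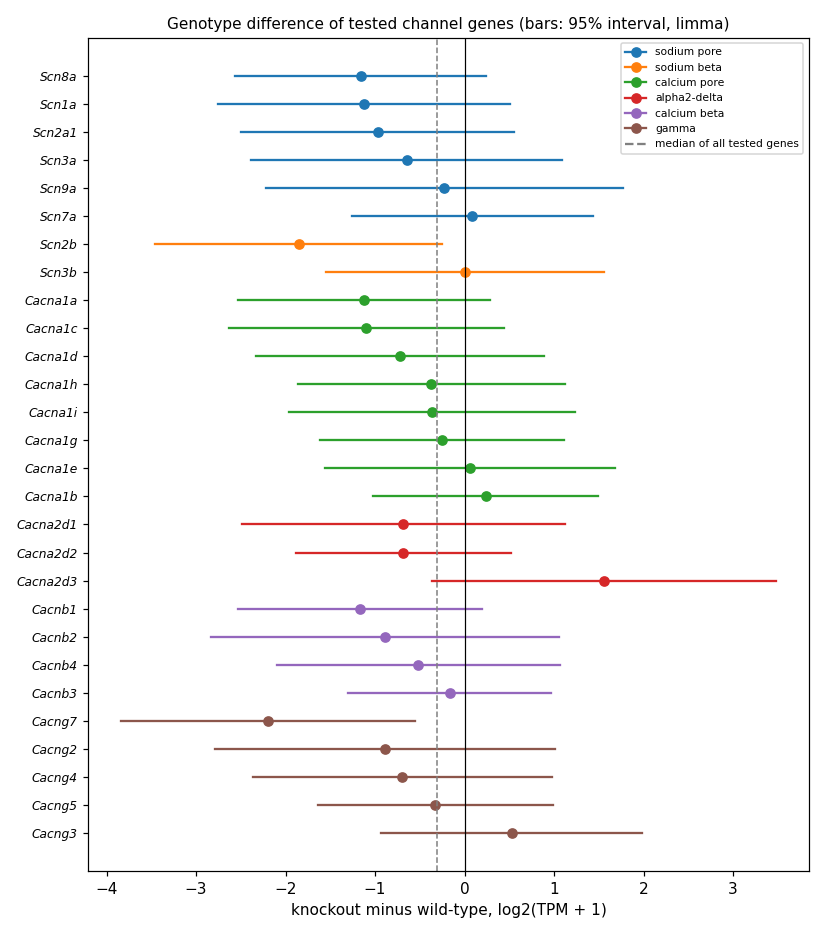
Knockout minus wild-type difference of 28 tested members on the log2(TPM + 1) scale, each as a point with its 95% interval from limma, grouped by subunit class, with a solid line at 0 and a dashed line at the median of all tested genes (-0.31). Of those shown, only the intervals of Cacng7 and Scn2b, before any adjustment, lie wholly below 0, and none lies wholly above it.

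Summed levels overlapped between the genotypes in all 6 classes. Alpha2-delta genes summed to 189, 146, 105, 66.9 and 82.7 TPM in knockout 1 to 5 and 226, 171, 184, 123 and 58.3 TPM in wild-type 1 to 5. Gamma genes summed to 427, 285, 331, 456 and 209 TPM in knockout and 770.4, 599, 374, 623 and 205 TPM in wild-type, calcium beta genes to 488, 257, 357, 551 and 309 TPM in knockout and 522, 308, 781, 808 and 353 TPM in wild-type, and sodium beta genes to 529, 78.3, 97.5, 169 and 81.2 TPM in knockout and 157, 226, 433, 236 and 91.4 TPM in wild-type. Alpha2-delta and gamma sums were above every knockout sum in 1 and 3 wild-type libraries. The sum over all 40 members was 2461, 1272, 1235, 1522 and 879 TPM in knockout 1 to 5 and 2640.0, 2110.1, 2811, 2177 and 946 TPM in wild-type 1 to 5, and was lowest in knockout 5 and wild-type 5. The members are long: their longest annotated transcripts have a median of 6424.5 bases, against 3509 bases for the 11623 tested genes with an annotated length. Genes with a transcript over 6000 bases held 13.0, 8.82, 8.20, 4.71 and 9.70% of the TPM in knockout 1 to 5 and 14.0, 10.5, 9.86, 8.21 and 3.61% in wild-type 1 to 5. This share was lowest in wild-type 5 and knockout 4 and highest in wild-type 1 and knockout 1, which had the highest sodium pore sums, but it was 9.70% in knockout 5, where the sodium pore sum was lowest. Its part in the channel levels was not tested.

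**Figure D5:**
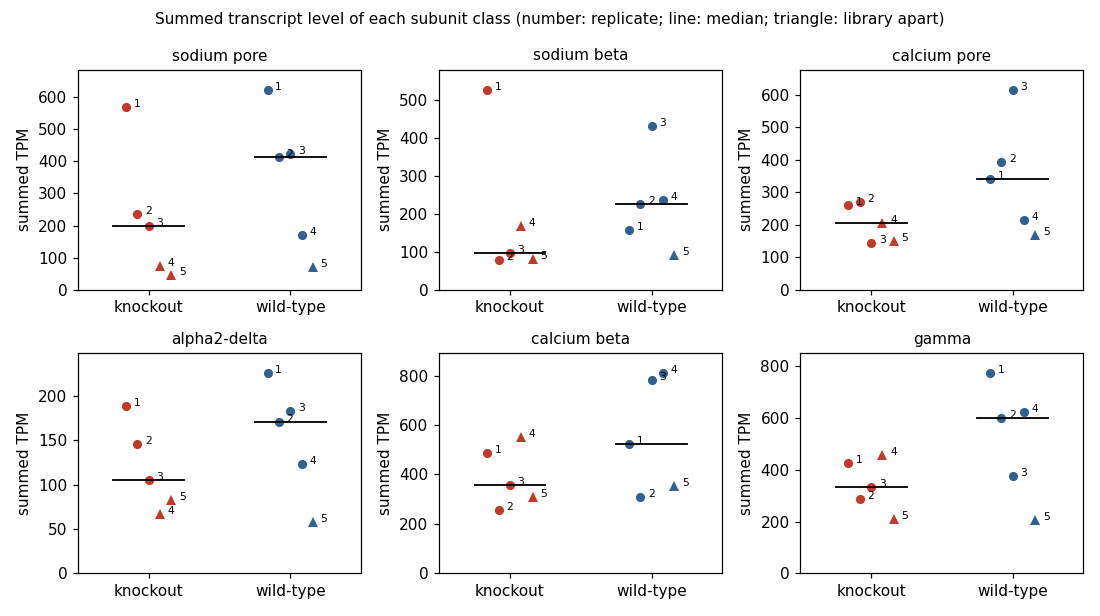
Summed TPM of each of the 6 subunit classes in each library, with knockout left of wild-type, the replicate number beside each point, a line at the median of 5 and triangles for the 3 libraries apart. Knockout 1 and wild-type 1 have the highest sodium pore sums (569 and 624 TPM) and knockout 5 and wild-type 5 the lowest (47.1 and 70.1 TPM), and the genotypes overlap in every panel.

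Genes of proteins that anchor, modulate or work beside these channels were examined as a second list of 40, of which 36 were tested. None passed the threshold in limma, and 0 had an unadjusted p under 0.05. By sign 34 were lower and 2 higher in knockout, with a median difference of -0.69, against 67.4% of all tested genes lower. Median centring and quantile normalization, which took the share of all tested genes to 46.1% and 52.3%, were not examined for this list. The smallest p values among lower genes were those of Slc8a3, Fgf12 and Atp2b2. Slc8a3, a sodium-calcium exchanger, averaged 18.8 ± 9.22 TPM in knockout and 41.1 ± 19.1 TPM in wild-type (SD, n = 5 each), a difference of -1.11 (SE 0.67). Fgf12, an intracellular protein that binds the tail of sodium pores, averaged 171 ± 143 TPM in knockout and 442 ± 315 TPM in wild-type (-1.37, SE 0.83), and Atp2b2, a plasma membrane calcium pump, 84.2 ± 50.5 TPM in knockout and 172 ± 99.7 TPM in wild-type (-0.92, SE 0.64). The higher genes were Calm3, which encodes the calcium sensor calmodulin, at 1686 ± 1473 TPM in knockout and 766 ± 689 TPM in wild-type (1.01, SE 0.72), and the presynaptic scaffold gene Bsn, at 99.9 ± 36.4 TPM in knockout and 92.5 ± 24.2 TPM in wild-type (0.07, SE 0.54).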

How the data were processed

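Single-end RNA sequencing was done on amplified cDNA from about 1000 sorted cells per library. The submitters' processing notes list the mouse build mm10, Cufflinks and version 2.0.10 of TopHat2, with no role for either tool; the annotation and the counting were not given in the sources used here. The deposited table holds log10(TPM + 1) values, the authors' normalization, with 1 column for each of 10 libraries. These were turned back into TPM, which sum to 1000000 in every library. Read counts cannot be recovered from TPM, so depth is unknown. Of 23746 lines, 25 with a number for a symbol were left out (at most 0.198% of TPM), and 240 symbols on more than 1 line were summed, none of them a member.

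Genotypes, taken from the sample titles, were compared with limma 3.58.1 in R 4.3.3 on log2(TPM + 1), with a mean-variance trend, over genes with at least 1 TPM in 5 libraries, after a test on simulated data. Exact permutation tests used every division of the 10 libraries into 2 sets of 5. Libraries are biological replicates per the series' design text. Coordinates come from GENCODE M21 (GRCm38, mm10) and upstream windows from RefSeq (GRCm38.p6). Members, marker lists and the associated list were chosen with earlier results of these data known. Per-library values are given for members with a median of at least 10 TPM, and differences for these and for the 4 tested members with the smallest p in each direction; 3 associated genes per direction are named. Single values of 2 members are not reported here; both stay in the fit, the counts and the class sums. Alternatives were the pseudocount, filter, scaling, replicate block, library weights, trend and leaving out libraries.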

Additional observations from a re-analysis of the deposited data

Results flagged for a closer look

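A gap test on the 48 sets of 5 libraries for the 24 members with a reported difference picked out 3 values, and chance alone picks about 1 set in 20. Scn3b in knockout 1 was at 520.2 TPM, far above the 53.5 to 78.2 TPM of the other knockout libraries. Cacna1b in wild-type 5 was at 28.3 TPM, below the 53.0 to 60.1 TPM of the other wild-type libraries. Cacnb2 in wild-type 5 was at 0.837 TPM, below the 13.2 to 24.7 TPM of the other wild-type libraries; knockout 4 and 5, the other libraries apart on the first component, were also low for this gene, at 1.0996 and 0.621 TPM.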

How the results depend on the processing

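No member passed the adjusted threshold under any of the 21 alternatives, where the smallest adjusted p was 0.645 (Cacng7, library weights). Of 503 values for the 24 members with a reported difference, 475 kept their direction and 28 did not, and 16 members kept it under every alternative they entered. Changing the filter, the replicate block or the mean-variance trend leaves the difference itself as in the main fit. Those values, counted among the 475, could not turn. The count of all genes past the threshold was 0, but 1 with a filter of 5 TPM, 3 with library weights, 1 with no mean-variance trend, and 0 to 1 when single libraries were left out (1 without wild-type 3, 4 or 5). Members lower in knockout numbered 20 to 26 of 30 without single libraries. Members with an unadjusted limma p under 0.05 numbered 2 to 8, with 8 without wild-type 5 (845 of all genes). With library weights they were 7 (834 of all genes). They were 4 without the 3 libraries apart (513 of all genes) and 3 with those libraries as a term (499 of all genes).

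Directions turned in these cases, and the cause was not tested. After median centring the differences were 0.12 for Cacna1g, 0.0043 for Cacna1h, 0.21 for Cacnb3, 0.046 for Cacng5 and 0.15 for Scn9a. After quantile normalization they were 0.066 for Cacna1g, 0.023 for Cacna1h and 0.12 for Scn9a. With library weights they were 0.0047 for Cacna1h, 0.066 for Cacnb3 and -0.30 for Scn3b, and with a pseudocount of 5 the Scn3b difference was -0.012. Without the 3 libraries apart they were 0.18 for Cacna1h, -0.18 for Scn3b and 0.28 for Scn9a, which was 0.28 also with those libraries as a term. Leaving out 1 library at a time gave -0.060 to 0.51 for Cacna1b, -0.44 to 0.075 for Cacna1g, -0.45 to 0.10 for Cacnb3, -0.037 to 0.90 for Cacng3, -0.66 to 0.075 for Cacng5, -0.59 to 0.40 for Scn3b and -1.09 to 0.29 for Scn9a. Without turning, the value moved by over 1.5 times for other members as well, to -0.59 for Cacna1a without wild-type 3, -0.26 for Cacna1d without wild-type 2, -0.048 for Cacna1h without wild-type 5, and, without knockout 5, to -0.60 for Scn2a1, -0.20 for Scn3a, -0.20 for Cacna2d1, -0.45 for Cacna2d2, -0.39 for Cacnb2, -0.28 for Cacng2 and -0.024 for Cacng4. Cacnb4 was at -0.13 without knockout 4, and Cacna2d3 at 0.71 without knockout 5. Those differences shrank when 1 library was left out. With the 3 libraries apart as a term, differences that shrank by over 1.5 times included -0.71 for Scn1a, -0.55 for Scn2a1 and -0.081 for Scn3a. In that fit they also included -0.13 for Cacna2d1, -0.26 for Cacnb2, -0.15 for Cacnb4 and -0.38 for Cacng2. Scn8a, Cacng7 and Scn2b moved less there, to -0.85, -1.84 and -1.74, while Cacna1b grew to 0.43 and Scn3b to 0.33. Differences also grew by over 1.5 times in other fits. Without wild-type 5 those that grew included -1.47 for Scn2a1, -1.24 for Scn3a, -1.25 for Cacna1d and -1.25 for Cacna2d1. In that fit they also included -1.56 for Cacnb2, -1.02 for Cacnb4 and -1.39 for Cacng2. Without knockout 1 the differences of Scn3a, Cacna2d1 and Cacng2 were -1.13, -1.29 and -1.37. Cacna1a and Cacna1d were at -1.71 and -1.10 without the 3 libraries apart, and Cacna1d at -1.34 with library weights.

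The replicate numbers were not taken to pair the libraries, since no label ties them and not every pair's deviations correlated above 0.1: same-numbered libraries had correlations of 0.225, 0.0741, 0.132, -0.032 and 0.364, and 3 of 5 correlated best with their own number. With the replicate number as a block, 0 genes and 0 members passed the threshold, 829 genes and 6 members had an unadjusted p under 0.05, and the adjusted p of Cacng7 was 0.692. Keeping the highest line of a symbol gave no other share, because every member is on 1 line.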
